A study of Zea mays with 4 samples.

Results

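The transcripts of 6 MADS-box transcription factor genes of floral development were followed in 2 organs of maize, the ear or female inflorescence (FI) and the uppermost stem internode (TI). The genes were fixed by identifier as zag1 (Zm00001d037737), zmm2 (Zm00001d008882), zag2 (Zm00001d041781), si1 (Zm00001d036425), zmm16 (Zm00001d042618) and zmm4 (Zm00001d034045), and all 6 were found among the 39179 gene models of the FPKM table. FI and TI came from greenhouse plants of the commercial Puma hybrid at 60 DAS (days after sowing), at early reproductive stage R1. Ears were bagged before silks emerged and were not pollinated. Each tissue has 2 libraries, which the study calls biological replicates, and the number of plants behind a library was not given in the sources used here.

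In the ABC model of flowers, combinations of MADS-domain proteins set the identity of each floral organ. A-class and AP1/FUL-type genes act from the floral transition onward, B-class genes specify lodicules and stamens, C-class genes specify stamens and carpels and end the floral meristem, and D-class genes act in the ovule. E-class (SEPALLATA-like) and AGL6-like proteins are their common partners. In maize the ear carries florets in which stamens arrest and the pistil grows on, while silks are its styles and the kernel forms from the ovule. Stem internodes form no floral organs.

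For all 6 genes the lower FI library exceeded the higher TI library in FPKM, the number of sequenced fragments scaled for transcript length and library size. Among the 19531 genes whose mean FPKM reached 1, 33% showed that order, so the order alone does not set these genes apart. The C-class pair zag1 and zmm2, D-class zag2 and B-class si1 were at or near 0 in TI replicate 1. In TI replicate 2 zag2 had 189 fragments, zag1 25, zmm2 15 and si1 2. B-class zmm16 was found in both TI libraries, and zmm4 was nearly as abundant in TI as in FI. In bulk tissue, fewer cells of a type and less RNA per cell cannot be told apart.

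**Figure D1:**
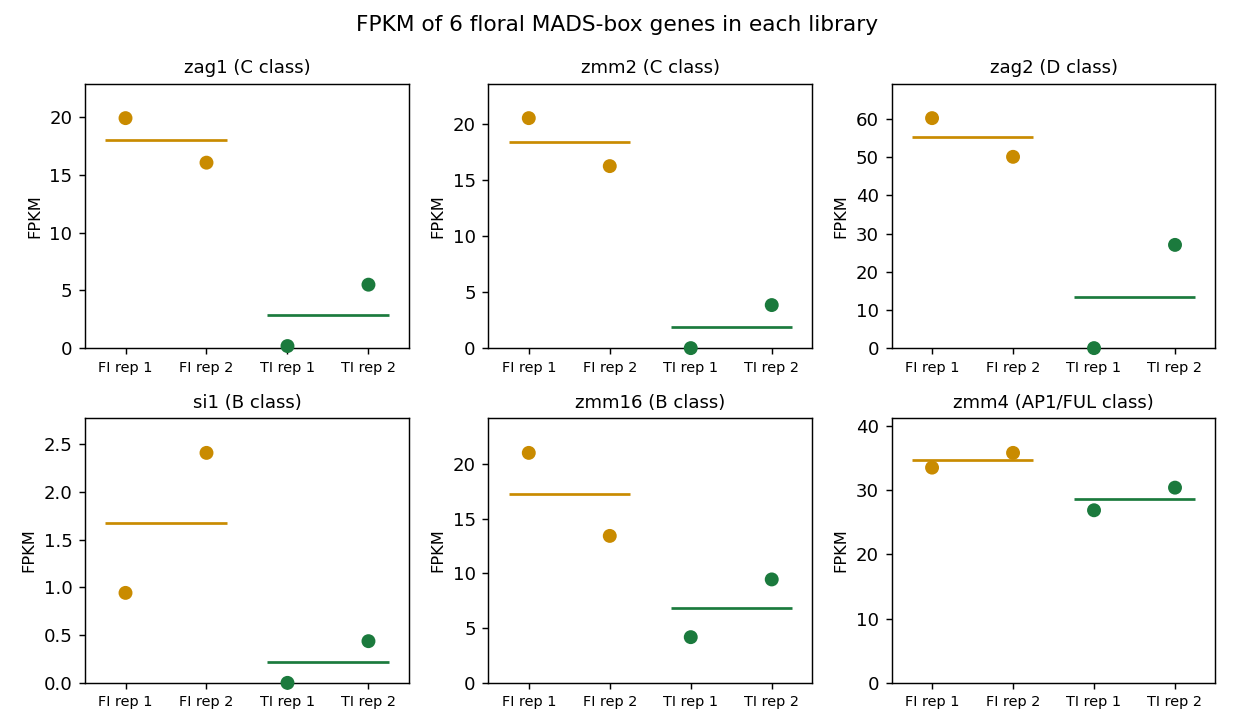
FPKM (y axis, from 0, scaled for each gene) of the 6 genes in the 2 FI libraries (ochre) and the 2 TI libraries (green); each point is 1 library and each line the mean of a tissue. Zmm2, zag2 and si1 were at 0 in TI replicate 1, and in all 6 genes TI replicate 2 lay above TI replicate 1 and below both FI libraries.

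The libraries were shallow and uneven. Whole fragments could be recovered from the FPKM values, and they summed to 3876892 and 3381101 in FI and to 2919956 and 2373386 in TI. In the separate table of raw counts the totals came to 2431447 and 2072230 in FI, against 1817889 and 1455729 in TI. The 2 TI libraries differed well beyond the 6 genes. Of all genes that were higher in FI without overlap, 85.5% had a lower FPKM in TI replicate 1 than in TI replicate 2. Genes of green tissue ran the other way, and the CPM (counts scaled to an equal total per library) of 5 of them (psbs1, pep1, ppdk1, ssu1 and me3) added up to 123 and 70.9 in FI, 586 in TI replicate 1 and 187 in TI replicate 2. Each of the 5 was higher in TI replicate 1 than in TI replicate 2, and FI was lower than either. Of 4 secondary wall genes of the stem, 3 were read from the count table. Cesa10 had 52.2 and 51.15 CPM in FI, against 24.2 and 41.2 CPM in TI. Bk2 had 4.52 and 4.34 CPM in FI, against 9.35 and 4.12 CPM in TI, and cesa12 had at most 5 counts in any library. Young ear genes were split. The 8 of 14 names read from the count table summed to 236.5 and 206.5 CPM in FI and to 239.8 and 206.8 CPM in TI. Of the 8, 4 were higher in FI without overlap and lowest in TI replicate 1 (ub2, ub3, fea2 and gt1). Gt1 had 43.2 and 41.5 CPM in FI, against 0 and 16.5 CPM in TI. Among all gene models with at least 15 counts, 29.6% were higher in FI without overlap. Kn1 and td1 were higher in TI. The tissues overlapped for ids1, with 8.23 and 13.5 CPM in FI, against 4.40 and 8.93 CPM in TI. Bd1, a spikelet meristem gene, had at most 1 count in any library. The part of these library differences in the values of the floral genes was not tested, and TI replicates 1 and 2 are therefore kept apart in what follows.

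Zag1, an AGAMOUS homolog required for determinacy of ear florets, had an FPKM of 19.9 and 16.1 in FI, against 0.178 in TI replicate 1 and 5.50 in TI replicate 2. These averaged 18 ± 2.73 in FI and 2.84 ± 3.76 in TI (SD, n = 2 each). These values stood for 147 and 106 fragments in FI and for 1 and 25 fragments in TI. TI replicate 1 was thus nearly without zag1, whereas TI replicate 2 held 30.4% of the FI level (95% Clopper-Pearson interval 19.3 to 45.9%). Against TI replicate 1 the FI level was 102-fold higher, with an interval from 18.1 to 4030 that reflects a single fragment. Intervals of this kind cover counting error only.

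Zmm2, the other AGAMOUS homolog of the list, had an FPKM of 20.5 and 16.2 in FI, against 0 in TI replicate 1 and 3.84 in TI replicate 2. Its FI mean was 18.4 ± 3.03 and its TI mean 1.92 ± 2.71 (SD, n = 2 each). Behind these FPKM values were 130 and 92 fragments in FI, against 0 and 15 in TI. For the count of 0 in TI replicate 1 the upper limit was 4.17% of the FI level, so FI was at least 24.0-fold higher than that library. In it, 3 fragments would be 3.36% of the FI level. TI replicate 2 reached 20.8% of the FI level (11.4 to 35.0%).

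Zag1 and zmm2 were close in level in FI, with a zag1 to zmm2 ratio of FPKM of 0.972 in FI replicate 1 and 0.99 in FI replicate 2. In TI replicate 2 the ratio was 1.43, from 25 and 15 fragments. Summed over both genes, C-class FPKM was 40.4 and 32.3 in FI, against 0.178 in TI replicate 1 and 9.34 in TI replicate 2. Both are among the genes the study called higher in FI from these same libraries, so their direction here is not independent evidence.

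Zag2, a D-class gene of the AGL11 group expressed in the carpel and ovule, was the most abundant of the 6 in FI. Its FPKM was 60.2 and 50.1 in FI, against 0 in TI replicate 1 and 27.0 in TI replicate 2. These averaged 55.2 ± 7.17 in FI and 13.5 ± 19.1 in TI (SD, n = 2 each), so that the spread within TI exceeded its mean. Among the 6 genes it showed the widest gap between the TI libraries, with 189 fragments in replicate 2 and 0 in replicate 1. With 683 and 508 fragments in FI, the upper limit for TI replicate 1 was 0.772% of the FI level. FI was thus at least 129-fold above that library, in which 3 fragments would be 0.627% of the FI level. TI replicate 2 held 48.8% of the FI level (41.6 to 56.9%). That interval does not overlap that of zmm2 and lies in part above that of zag1. The ratio of zag2 to zag1 was 3.02 and 3.12 in FI and 4.92 in TI replicate 2.

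Si1 (Silky1) is the maize homolog of APETALA3, and its loss turns stamens into carpel-like organs. It was the lowest of the 6, with an FPKM of 0.943 and 2.41 in FI, against 0 in TI replicate 1 and 0.437 in TI replicate 2. These averaged 1.68 ± 1.04 in FI and 0.219 ± 0.309 in TI (SD, n = 2 each). Only 7 and 16 fragments were behind the FI values and 2 behind that of TI replicate 2. The upper limit for TI replicate 1 was 43.3% of the FI level, so FI was at least 2.31-fold higher than that library. TI replicate 2 was at 26.7% of the FI level, and its interval of 3.05 to 108% includes equality, so no difference from that library was detectable at this depth.

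Zmm16, a PISTILLATA homolog whose protein pairs with that of si1, had an FPKM of 21 and 13.4 in FI, against 4.18 in TI replicate 1 and 9.45 in TI replicate 2. These averaged 17.2 ± 5.36 in FI and 6.81 ± 3.73 in TI (SD, n = 2 each). It was the only gene of the B, C and D classes in the list with more than 1 fragment in TI replicate 1, where 18 fragments amounted to 24.0% of the FI level (13.9 to 38.9%). In TI replicate 2, 33 fragments gave 54.2% (36.3 to 78.8%). Zmm16 exceeded si1 by 22.3-fold in FI replicate 1 and 5.57-fold in FI replicate 2 on the FPKM scale.

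Zmm4, an AP1/FUL-type gene known for promoting the floral transition, differed least between the tissues. Its FPKM was 33.5 and 35.8 in FI, against 26.9 in TI replicate 1 and 30.4 in TI replicate 2. These averaged 34.6 ± 1.62 in FI and 28.6 ± 2.49 in TI (SD, n = 2 each). TI replicate 1 held 77.7% of the FI level (70.5 to 85.4%) and TI replicate 2 held 87.9% (79.5 to 96.9%), and both intervals lie below the FI level. These rest on 921 and 880 fragments in FI and on 562 and 515 in TI, the deepest coverage of the 6 genes.

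**Figure D2:**
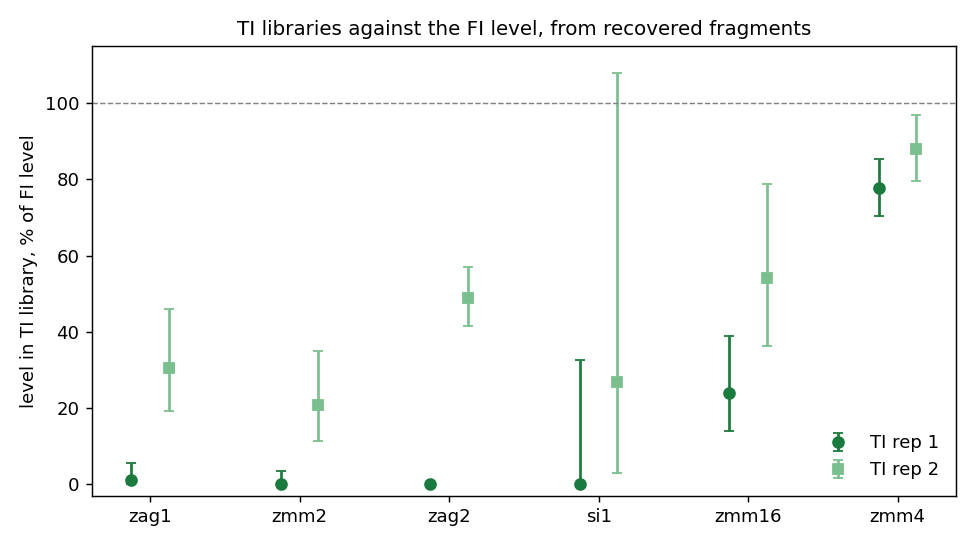
Level of each gene in TI replicate 1 (dark circles) and TI replicate 2 (light squares) as a percent of its FI level (y axis), from recovered fragments scaled by library depth; bars are 95% Clopper-Pearson intervals, or for a count of 0 the share that 3 fragments would make. TI replicate 2 ranges from 20.8% for zmm2 to 87.9% for zmm4, and TI replicate 1 from 0 to 77.7%.

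The make-up of the 6 genes followed from these values. Zmm4 made up 21.45 and 26.7% of their summed FPKM in FI, 86.05% in TI replicate 1 and 39.6% in TI replicate 2. Zag2 made up 38.6 and 37.4% in FI, 0% in TI replicate 1 and 35.3% in TI replicate 2. Without zmm4, the other 5 genes summed to an FPKM of 123 and 98.2 in FI, against 4.35 in TI replicate 1 and 46.25 in TI replicate 2. Ordered by level in FI, zag2 came first, zmm4 second, then zmm2, zag1 and zmm16, which lay within 1 SD of each other, and si1 last. In TI replicate 1 zmm4 came first and zmm16 second, and the others were at or close to 0.

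Tested as log2(FPKM + 1) with limma, 0 of the 5 genes above the filter (mean FPKM of 1) had an adjusted p under 0.05 (Benjamini-Hochberg over all 19531 genes), and the percentage over all genes was 0%. Si1 fell under the filter with a mean FPKM of 0.948, and without the filter its difference was 1.10 (standard error 0.38, adjusted p = 0.292 by limma). An unadjusted p under 0.05 was found for 3 of the 5, zag1, zmm2 and zmm16, against 8.8% of all genes in the direction of FI. The differences on this scale, which understates those of low genes, were 3.13 for zmm2 (standard error 0.81, adjusted p = 0.255), 2.77 for zag1 (standard error 0.87, adjusted p = 0.265) and 1.28 for zmm16 (standard error 0.45, adjusted p = 0.275). Zag2 had a difference of 3.40 with a standard error of 1.66 (adjusted p = 0.314 by limma), and zmm4 one of 0.27 with a standard error of 0.21 (adjusted p = 0.480 by limma). The median of the 5 was 2.77 and that of all genes 0.06. On recovered fragments, 0 of 5 passed both by the quasi-likelihood test of edgeR (adjusted p from 0.282 to 0.495, 2 with an unadjusted p under 0.05) and by its exact test (0.204 to 0.717, 3 with an unadjusted p under 0.05), where 0% and 5.01% of 18026 genes passed. For zag2 the size depended on the scale, with a log2FC of 2.04 on fragments by the quasi-likelihood test and a difference of 5.06 with a pseudocount of 0.1. No exact permutation test of 2 libraries against 2 can give a two-sided p below 0.33 for any gene.

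Whether the genes passed depended on TI replicate 2. Without it, zag1, zmm2, zag2 and zmm16 had an adjusted p under 0.05 by limma, or 4 of the 6 genes then tested, against 17.5% of all genes in the direction of FI. Their differences became 4.0 for zag1 (adjusted p = 0.00366), 4.27 for zmm2 (0.00366), 5.81 for zag2 (0.00353) and 1.78 for zmm16 (0.0261), and the highest adjusted p over the alternatives was 0.694 to 0.695 for each of them. The lone TI library is assumed in that fit to vary like the FI libraries. Si1 had a difference of 1.36 (adjusted p = 0.077 by limma) and zmm4 one of 0.36 (adjusted p = 0.336 by limma). Without TI replicate 1, the differences were 1.54 for zag1, 1.99 for zmm2, 1.00 for zag2, 0.77 for zmm16 and 0.18 for zmm4, and 0 genes of the list passed by limma, where 0% of all genes passed in the direction of FI and 3 of the 6 had an unadjusted p under 0.05, against 11% of all genes in that direction.

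**Figure D3:**
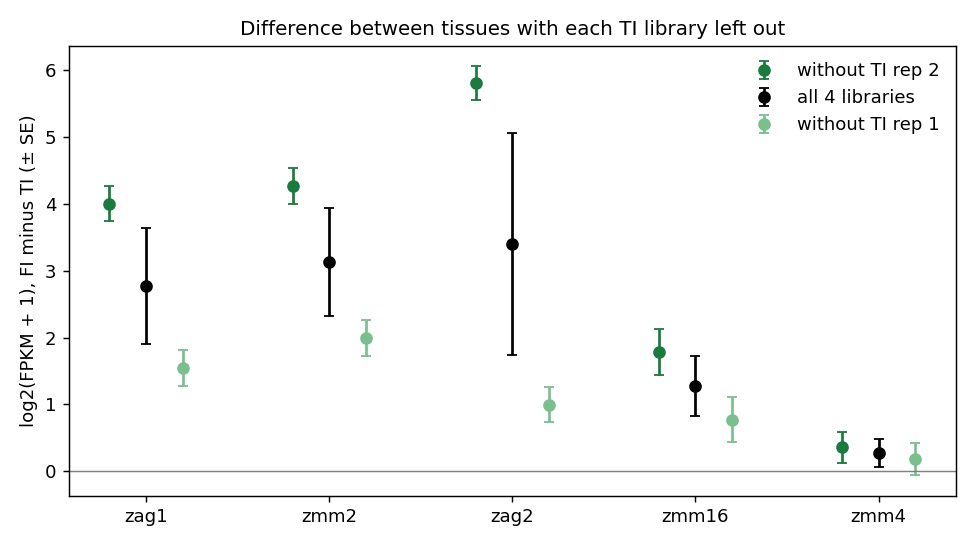
Difference FI minus TI in log2(FPKM + 1) (y axis, with standard error from limma) for the 5 genes that passed the filter, with TI replicate 2 left out (dark green), with all 4 libraries (black) and with TI replicate 1 left out (light green). The difference of zag2 is 5.81, 3.40 and 1.00 in these fits, while that of zmm4 stays between 0.18 and 0.36.

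The table of raw counts, made by another pipeline and named by older gene models, gave the same direction for the genes it covers. Zag1 had 228 and 121 counts in FI, against 2 and 42 in TI, and the log2FC was 2.37 (standard error 1.11, adjusted p = 0.359 by the quasi-likelihood test of edgeR). Zmm16 had 165 and 109 counts in FI, against 21 and 54 in TI, and the log2FC was 1.29 (standard error 0.56, adjusted p = 0.338 by the same test of edgeR). Zmm4 had 306 and 303 counts in FI, against 201 and 146 in TI, and a log2FC of 0.31 with a standard error of 0.21. In CPM zmm4 was at 126 and 146 in FI, 111 in TI replicate 1 and 100.3 in TI replicate 2, so that the order of the TI libraries was the reverse of that on FPKM. The count table nearly lacks the other abundant members. Zag2 had only 19 and 22 counts in FI, against 0 and 8 in TI, or 3.44 counts in FI for every 100 fragments behind its FPKM, and its log2FC was 1.78 with a standard error of 1.14. Zmm2 had 2 counts in each FI library and 0 in both TI libraries, 1.80 per 100 fragments. Zmm4 had 33.8, si1 78.3, zag1 138 and zmm16 147 counts per 100 fragments, and the whole FI libraries had 62.1. How each pipeline treated reads shared between near-identical copies is not given in the sources used here. The levels of zmm2 and zag2 therefore rest on the FPKM table, and whether part of their reads belongs to paralogs was not tested. Of the 4 genes with enough counts for a test, 0 had an adjusted p under 0.05 by edgeR and 0 an unadjusted one, where 0% and 6.11% of 15479 gene models passed in the direction of FI. By DESeq2 it was 0 and 2 of 4, and 5.43% of gene models had an unadjusted p under 0.05 in that direction. Without TI replicate 2, zag1, zag2 and zmm16 passed by edgeR (adjusted p of 8.64e-06, 0.00716 and 0.000776), where 15% of gene models passed in the direction of FI. Without TI replicate 1, 0 of 5 passed, against 0.806% of gene models. The adjusted p of these 3 over the alternatives on counts reached 0.803 to 0.808.

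Other floral MADS-box genes were read from the count table by name, and 16 gene models were found for 21 names. Of the 14 that could be tested, 0 had an adjusted p under 0.05 by edgeR (lowest 0.304), and 1, zap1, had an unadjusted p under 0.05, a share near the 6.11% of all gene models in the direction of FI. In 13 of 16 the FI libraries did not overlap the TI libraries and were higher, against 29.6% of all gene models with at least 15 counts. TI replicate 2 exceeded TI replicate 1 in 16 of 16, against 56.4% of those gene models. On the FPKM scale that order of the TI libraries held in 85.5% of genes higher in FI without overlap, so it does not set these genes apart. The median log2FC of the 14 was 2.04, and that of all gene models tested was 0. With TI replicate 1 left out, the log2FC of the 16 by edgeR ran from −0.33 for zmm28 to 2.20 for zmm29. With TI replicate 2 left out, it ran from −0.28 for zmm28 to 11.68 for zmm27. Both fits rest on a lone TI library.

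The 6 E-class gene models, partners of the C- and D-class proteins, included those with the highest counts. They had 87.6 to 260 CPM in FI, against 0 to 16.0 CPM in TI replicate 1 and 40.5 to 98.2 CPM in TI replicate 2. Zmm27 had 549 and 344 counts in FI, none in TI replicate 1 and 111 in TI replicate 2. A gene model listed under both zmm8 and zmm14 had 632 and 396 counts in FI, against 2 and 116 in TI. Zmm7, also among the genes the study called higher in FI, had an FPKM of 90.9 and 61.8 in FI, against 1.00 in TI replicate 1 and 26.6 in TI replicate 2 (difference 3.35, standard error 1.33, adjusted p = 0.282 by limma). The name zmm7 is given to another gene model in the gene table used here. Zmm24 was the E-class gene with the most counts in TI replicate 1, 29, or 17.7% of its FI mean in CPM, while the other 5 were at most at 1.5% there. With TI replicate 1 left out, the log2FC of the 6 by edgeR ran from 0.5459 for zmm24 to 1.496 for zmm8. With TI replicate 2 left out, it ran from 2.454 for zmm24 to 11.68 for zmm27, which had no counts in TI replicate 1. Each of these fits rests on a lone TI library.

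The AGL6-type genes bde1, which acts in floral meristem determinacy, and zag5 had 143 and 131 counts and 94 and 78 counts in FI. Both had 0 in TI replicate 1 and had 48 and 26 in TI replicate 2. D-class zmm1, a close relative of zag2, had 91 and 99 counts in FI, against 0 and 29 in TI. Zmm25 had 110 and 95 counts in FI, against 2 and 33 in TI. In TI replicate 2 the 2 D-class genes held 46.8 and 49.8% of their FI mean in CPM. The 48.8% of zag2 came from fragments of the other pipeline and is not a like measure. In the count table zag2 had 7.81 and 10.6 CPM in FI, against 5.50 CPM in TI replicate 2, from only 8 counts there. The PISTILLATA-type gene zmm18 had 65 and 35 counts in FI, against 1 and 23 in TI, and TI replicate 1 held 2.52% of its FI mean in CPM. Its relative zmm29 had 4 and 11 counts in FI, against 0 and 1 in TI, and zmm17, a B-sister gene of the ovule, had 15 and 6 in FI, against 0 and 6 in TI. Both had too few counts for the test on 4 libraries, and neither passed with either TI library left out (adjusted p from 0.083 to 0.973 by edgeR).

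AP1/FUL-type genes differed among themselves. Zap1 had 250 and 239 counts in FI, against 62 and 104 in TI, and its log2FC was 1.01 (standard error 0.37, adjusted p = 0.304 by edgeR). Zmm28 had 268 and 244 counts in FI, against 246 and 207 in TI, and a log2FC of −0.33 with a standard error of 0.19. Zmm15, the nearest relative of zmm4, had 15 and 9 counts in FI, against 9 and 8 in TI, and a log2FC of −0.03 with a standard error of 0.54. As with zmm4, transcripts of all 3 were present in both TI libraries.

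MADS-box genes outside the floral classes had a log2FC from −2.67 to 0.30. Tu1 (zmm19), the gene of the pod corn mutation and related to SVP, had 20 and 15 counts in FI, against 102 and 54 in TI. The log2FC of tu1 was −2.64 (standard error 0.39, adjusted p = 0.201 by edgeR), and its FPKM was 14.95 and 12.3 in FI against 94.0 and 62.1 in TI. Zmm26 had 98 and 80 counts in FI, against 391 and 181 in TI (log2FC −2.17, standard error 0.35), and zmm20 had 23 and 10 in FI, against 102 and 48 in TI (log2FC −2.67, standard error 0.52). Of the 5 gene models found, 0 passed by edgeR with adjustment and 3, these same genes, had an unadjusted p under 0.05, against 9.67% of all gene models in the direction of TI. The study lists all 3 as higher in TI from these libraries, so this is no independent evidence. They passed by edgeR with either TI library left out, with an adjusted p of 0.0121 for tu1, 0.0268 for zmm20 and 0.00536 for zmm26 without TI replicate 1, where 1.64% of gene models were higher in TI, and of at most 9.71e-05 without TI replicate 2, where it was 8.8%. Zmm5, related to SOC1, had 12 and 24 counts in FI, against 13 and 8 in TI. Zmm22 had 50 and 42 counts in FI, against 65 and 40 in TI. Scaled to CPM, zmm22 was at 20.6 and 20.3 in FI, against 35.8 and 27.5 in TI (log2FC −0.69, standard error 0.32). In all 5 TI replicate 1 had a higher CPM than TI replicate 2. Zfl1, a LEAFY homolog that acts upstream of floral MADS-box genes, had 2 and 0 counts in FI and none in TI, too few to compare.

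**Figure D4:**
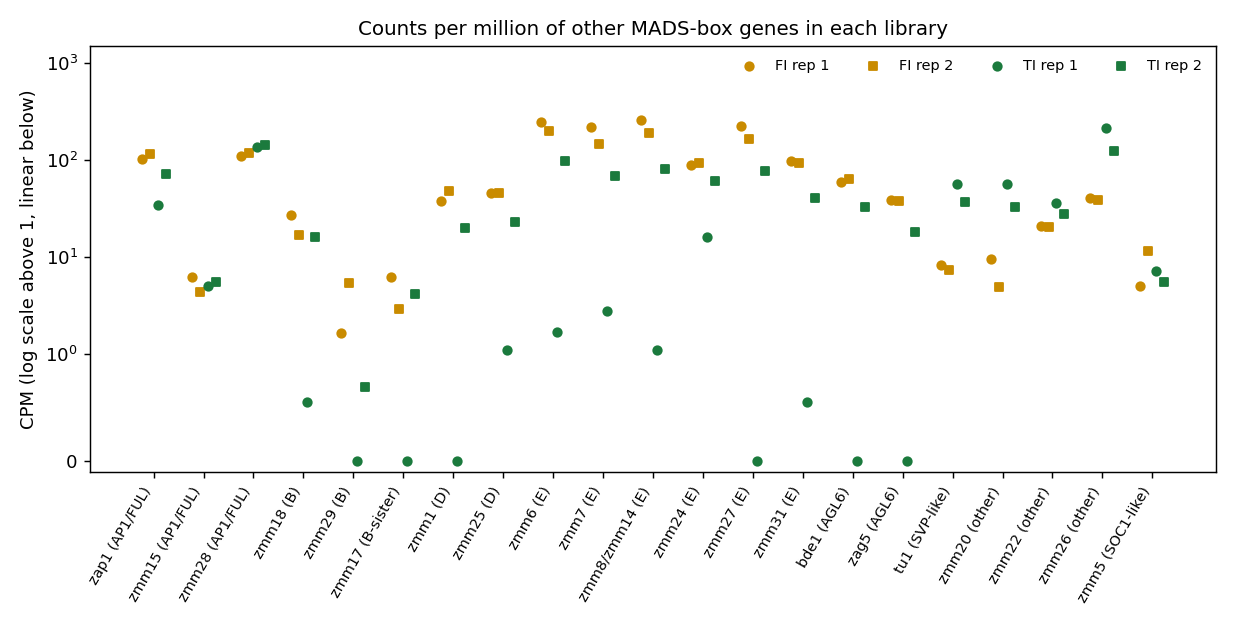
CPM (y axis, logarithmic above 1 and linear below) of 16 other floral MADS-box gene models and 5 MADS-box gene models outside the floral classes, with the class in brackets; ochre points are FI, green points TI, circles replicate 1 and squares replicate 2. The E-class, AGL6 and D-class genes lie high in both FI libraries, below them in TI replicate 2 and, apart from zmm24, at or near 0 in TI replicate 1, whereas tu1, zmm20 and zmm26 lie higher in both TI libraries.

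Genes with the most similar pattern were sought by the Euclidean distance over the 4 libraries between centred log2(FPKM + 1) values. Among the 3 nearest to zag1 was mde1 (Zm00001d003945), at a distance of 0.221, with 50.3 and 38.1 FPKM in FI, against 1.83 and 17.3 FPKM in TI. Among the 3 nearest to zmm2 was Zm00001d048055, a putative glucosidase, at 0.417, with 18.5 and 11 FPKM in FI, against 0 and 3.71 FPKM in TI. Both are in the study's list of genes higher in FI. The gene nearest to zag2 was Zm00001d005454, at 0.109, with 76.5 and 61.4 FPKM in FI, against 0.328 and 32.8 FPKM in TI. Zmm4 was matched most closely by Zm00001d025963, at 0.0169, with 32.3 and 35.0 FPKM in FI, against 25.9 and 29.5 FPKM in TI. On the FPKM scale the order of all 6 genes, with TI replicate 1 lowest, TI replicate 2 next and both FI libraries above, was shared by 28.2% of the 19531 genes, and 3.92% were at 0 in TI replicate 1 alone.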

How the data were processed

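RNA of FI and TI was sequenced as paired-end reads, 2 libraries per tissue. Per gene, the authors computed FPKM in CLC Genomics Workbench, with B73 RefGen_v4 as reference. The deposited raw counts per transcript carry version 3 names. Per the labels, reads were cleaned with Trimmomatic and aligned with TopHat2 2.0.13, with B73 RefGen_v3 as the build, while the methods name RefGen_v4. The counting tool is not given in the sources used here. Reads of a hybrid were mapped to 1 inbred genome. In the count table FI is named floral stem, taken as FI because only these 2 tissues exist. The authors' fold changes and FDR were not used.

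For the main test limma 3.58.1 was run on log2(FPKM + 1) after dropping genes whose mean FPKM was under 1. Counts were summed per gene model, kept by filterByExpr (minimum count 10, total 15), normalized by TMM and tested with edgeR 4.0.16 (quasi-likelihood) in R 4.3.3, with DESeq2 1.42.0 and the edgeR exact test as alternatives. Adjusted p-values follow Benjamini-Hochberg over all genes tested. Fragments are the smallest whole numbers that give a gene's FPKM in the 4 libraries, and a shared factor would leave ratios as they are. They were recovered in 24149 of 24149 genes above 0 in at least 2 libraries, and the 1973 genes above 0 in 1 library were set to 1 fragment. Methods were tested on simulated data. For the fits, simulated replicates of a tissue shared 1 expected level, so a gap like that between the TI libraries was not covered.

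Members and lists were chosen with earlier results of these data known. The text names the 6 genes, other MADS-box genes of the list and the 3 nearest genes by pattern, where named. Version 3 gene models came from names in a RefSeq gene table (assembly Zm-B73-REFERENCE-NAM-5.0) and from the study's supplement. Its short names (m4 for zmm4) were used for zmm4 and 10 list names after the table was seen. Coordinates and sequences were not used here.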

Additional observations from a re-analysis of the deposited data

How the results depend on the processing

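The direction FI over TI held in all 94 values over the alternatives to the fit on FPKM and the fit on counts. These values cover 5 of the 6 genes, without si1 and with zmm2 on FPKM only. In FPKM the tissues did not overlap for any of these genes. Leaving out a library, changing the pseudocount or adding a replicate block therefore could not reverse the direction on FPKM, and those values are no separate evidence for it. In the alternatives that kept all 4 libraries, 0 of the values passed the threshold. Those that passed came from fits without TI replicate 2, which rest on a lone TI library. Leaving out 1 library at a time, the genes of the list that passed numbered 0 to 4 on FPKM and 0 to 3 on counts, and 0 to 5013 genes overall passed on FPKM, and 0 to 4072 gene models on counts. The whole-table counts were 903 on recovered fragments by the edgeR exact test, and on counts 324 by DESeq2, 719 by the edgeR exact test and 477 with low counts kept, against 0 by limma and by the quasi-likelihood test. In these 4 settings 0 of the genes of the list that could be tested passed (5 on fragments, 4 by DESeq2 and the exact test on counts, 6 with low counts kept). The replicate numbers are not known to pair the libraries (correlation across 19531 genes of replicate 1 minus replicate 2 between the tissues 0.174). With a replicate block, 0 of 5 genes of the list on FPKM, 0 of 4 on counts and 0 genes in all passed, and 3879 genes had an unadjusted p under 0.05 on FPKM, against 3524 without it. Quantile normalization moved the median difference of all genes to −0.05, against 0.06, and left the direction of the tested genes as it was. Depth limits si1, with 25 fragments in all. For zag1, zmm2 and zag2 in TI replicate 1 it limits how closely the fold can be given. The lower limits of FI over that library were 18.1-fold for zag1, 24.0-fold for zmm2 and 129-fold for zag2, for counting error only.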
